A study of Rattus norvegicus with 23 samples.

Results

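Gene expression in the dorsal striatum was compared between delayed shock-resistant (DSR) rats and saline control (CT) rats, with 1 library per rat. The comparison took the 5 libraries labelled with a resurgence of shock resistance and the 6 labelled as controls, which are 11 of the 23 libraries sequenced. All rats were adult wild type Long Evans males. DSR rats pressed a lever for intravenous methamphetamine (METH, 0.1 mg/kg per infusion) over 22 training days by the labels, and received footshocks on 8 days, of 0.18 mA at first and 0.36 mA at the end. These rats reduced their intake under the first shocks. They then went through 15 days of forced abstinence, took METH for another 12 days and kept taking it under footshocks of 0.30 mA over 3 days. Another drug-free period with tests of drug seeking came after that, and tissue was collected on the day following the final test. CT rats took saline and received neither METH nor footshocks. METH exposure, footshocks and selection by behavior therefore cannot be told apart in DSR vs CT. The remaining libraries came from 6 always shock-resistant (ASR) and 6 always sensitive (AS) METH rats, which shared the drug and shock schedule with the DSR rats. Each rat carries the prefix Grp7 or Grp8 in its title, and what the prefix marks is not stated in the sources used here. Grp7 held 2 DSR and 4 CT rats, and Grp8 held 3 DSR and 2 CT rats.

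METH enters dopamine terminals and releases dopamine, and the dorsal striatum is a main target of these terminals. This region is known for its part in habits and in learned action sequences. Most of its neurons are GABAergic projection neurons, and the tissue also holds interneurons, glia, vessel cells and, along the ventricle, ependymal cells. In such bulk tissue, fewer cells of a type and less RNA per cell cannot be told apart.

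Total counts ranged from 18967015 to 23248971 in CT rats and from 24588332 to 28137676 in DSR rats, so that every DSR library was deeper than every CT library. Detected genes numbered 20024 to 20398 in CT and 20343 to 20521 in DSR rats. At the depth of the shallowest library, the expected numbers were 19815 to 20132 in CT and 19917 to 20105 in DSR rats, and the groups overlapped. The part of depth in the results was not tested. The files list 32552 genes by Ensembl identifier with Rnor6.0 positions, and 0 of them could be paired with a symbol from the table used here. Genes are therefore given by position, or by identifier for a few, and the tissue label was not checked against marker genes. Levels are in CPM, the counts of a gene relative to the library total scaled with TMM factors.

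No gene separated DSR from CT rats after adjustment for the number of genes. Of 16275 genes tested, 449 (2.76%) were higher and 304 (1.87%) lower in DSR rats at an unadjusted p under 0.05 in edgeR's quasi-likelihood test, which makes 753 where 5% of the genes would be 814. With Benjamini-Hochberg adjustment 0 genes passed (0%), and the smallest adjusted p was 0.982. DESeq2 was run without the filter on low counts, so its counts are not out of the same 16275 genes. On all groups it gave 913 genes at an unadjusted p under 0.05 and 0 after adjustment. On the 11 rats alone it gave 679 and 1, with an adjusted p for 24483 genes. At a difference of at least 1.5-fold and an unadjusted p under 0.05, 67 genes (0.412%) were higher and 50 (0.307%) lower in DSR rats. The sources used here word their fold threshold both as a fold and as a log fold change. At a log2 fold change over 1.5, 6 genes passed in the same fit. On its unfiltered genes, DESeq2 gave 226 past the 1.5-fold threshold on all groups and 195 on the 11 rats alone. Most of the 117 genes past both thresholds in edgeR were weakly expressed, with a median of 0.720 CPM against 17.9 CPM over all genes tested. A mean of 1 CPM was reached by 41 of the 117. The groups did not overlap in 63 genes. Every DSR rat was above every CT rat in 38 (0.233%) and below every CT rat in 25 (0.154%). In 206 of the 753 genes and in 37 of the 117, the unadjusted p stayed under 0.05 whichever of the 11 rats was left out. Leaving out CT rat Grp8-L11 raised the 753 to 1208. Leaving out DSR rat Grp8-L9 raised the 117 to 201, and 72 of these were then higher and 129 lower.

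**Figure D1:**
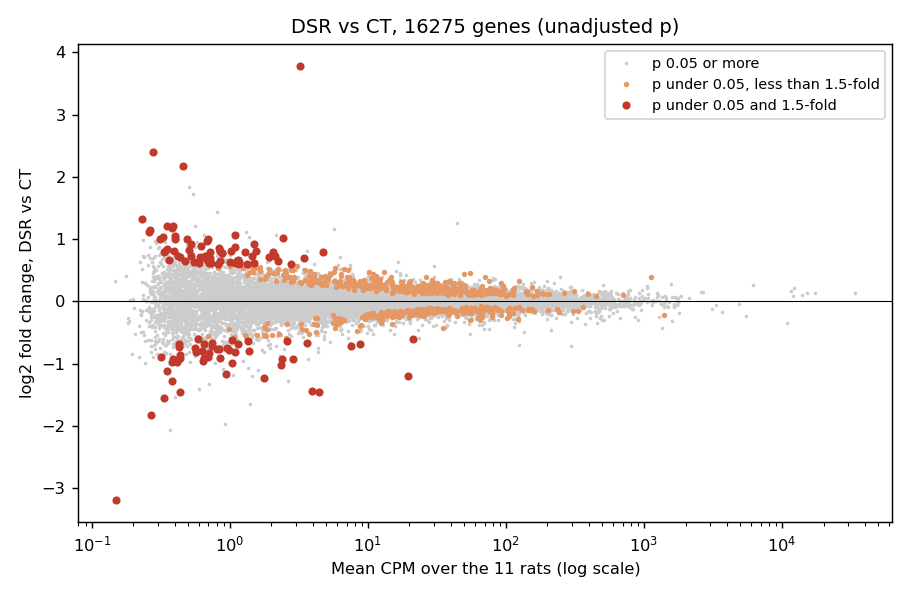
Fold change of DSR vs CT (vertical axis, log2) against mean CPM over the 11 rats (horizontal axis, log scale) for 16275 genes, colored by unadjusted p and size. The 117 genes past both thresholds lie mostly at the low end of expression, around a median of 0.720 CPM.

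Named genes were chosen by their p on these same rats, so that their permutation p below restates that choice. The 10 genes of at least 1 CPM with the smallest p on the higher side had fitted log2 fold changes of 0.61 to 3.78. The smallest p belonged to ENSRNOG00000020729, on the plus strand of chromosome 10 from 16542882 to 16553295, with 1557 exonic bases. Its level was 0.903, 1.15 and 1.43 CPM at the lowest, median and highest in CT rats. The DSR rats had 2.39, 2.43, 1.51, 1.73 and 2.09 CPM. The groups thus did not overlap, on 17 to 33 counts per CT library and 38 to 66 per DSR library. The log2 fold change was 0.81 ± 0.19 (SE), or 1.76-fold (edgeR adjusted p = 0.982; the unadjusted value was 0.000219). A two-sided exact permutation test of log2 CPM over the 11 rats gave p = 0.00433, the smallest that their 462 splits allow. Among Grp7 rats the difference was 1.05 and among Grp8 rats 0.54 on the log2 scale.

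The largest fitted fold among these 10 genes rested on 2 rats. It was a minus-strand gene of chromosome 2 from 186595051 to 186606172, with a log2 fold change of 3.78 ± 1.05 (SE; exact permutation p = 0.0476, edgeR adjusted p = 0.982). DSR rats Grp7-L2 and Grp8-R1 both stood at 15.4 CPM. The other DSR rats had 0.626, 0.833 and 0.522 CPM, inside the CT range of 0.174 to 0.993 CPM. A comparable jump appeared in 2 AS rats, at 12.5 and 11.2 CPM, while the other AS rats stayed between 0.379 and 0.676 CPM. No ASR rat exceeded 1.19 CPM. Another gene overlaps this one and its reads could be shared, although that gene held 59 counts over the 11 libraries against 922 here.

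**Figure D2:**
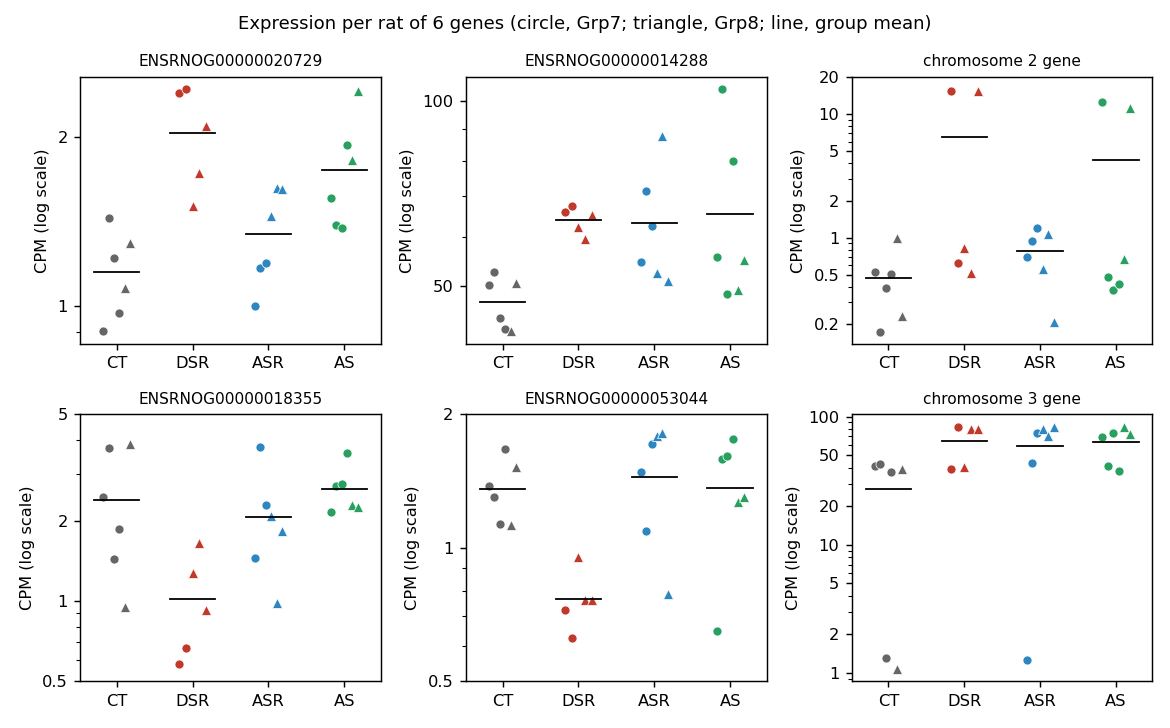
CPM (log scale) of 6 genes in each rat of the 4 groups, with circles for Grp7, triangles for Grp8 and a line at the group mean. DSR and CT rats do not overlap for ENSRNOG00000020729, ENSRNOG00000014288 and ENSRNOG00000053044, whereas 2 DSR rats at 15.4 CPM set the mean of the chromosome 2 gene. For the chromosome 3 gene the rats fall into 3 levels, each shared by several rats.

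In a further pair of the 10 higher genes, all DSR rats exceeded all CT rats. A 118-base gene on the minus strand of chromosome 2, from 11884658 to 11884775, had 1.61 to 2.63 CPM in CT rats and 2.90, 3.48, 3.41, 3.89 and 3.45 CPM in DSR rats. Its log2 fold change was 0.61 ± 0.17 (SE; exact permutation p = 0.00433, edgeR adjusted p = 0.982). On chromosome X, a plus-strand gene from 63343546 to 63389989 was steady in CT rats, at 0.782 to 0.956 CPM. DSR rats had 1.23, 1.96, 1.15, 1.44 and 1.20 CPM for this gene, and the log2 fold change was 0.64 ± 0.21 (SE; exact permutation p = 0.00433, edgeR adjusted p = 0.982). The other 6 genes of this set overlapped between groups. They lie on chromosomes 12, 3, 19, 7, 6 and 7, and 3 of the 10 overlap another annotated gene, so that reads could be shared. For the gene on chromosome 7 from 143161235 to 143167772, leaving out DSR rat Grp7-L2 moved the p from 0.0106 to 0.0699.

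The 10 genes on the lower side had fitted log2 fold changes of -1.44 to -0.61. ENSRNOG00000018355, on the plus strand of chromosome 17 from 11683862 to 11689527, was listed first, at 2.38 ± 1.21 CPM (SD, n = 6) in CT rats. The DSR rats had 0.579, 0.666, 1.27, 1.65 and 0.924 CPM, or 1.02 ± 0.44 (SD, n = 5). The highest DSR rats lay within the CT range of 0.950 to 3.88 CPM. The fit gave a log2 fold change of -1.23 ± 0.36 (SE; exact permutation p = 0.0303, edgeR adjusted p = 0.982).

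ENSRNOG00000053044 separated the groups more cleanly. This gene of 483 bases lies on the minus strand of chromosome 2 from 208225406 to 208225888. CT rats ranged from 1.12 to 1.67 CPM, and DSR rats had 0.724, 0.626, 0.952, 0.762 and 0.763 CPM. Every DSR rat was below every CT rat, and an exact permutation test gave p = 0.00433. The log2 fold change was -0.82 ± 0.24 (SE; edgeR adjusted p = 0.982), on 16 to 24 counts per DSR library. An 84-base gene on chromosome 8 from 44992796 to 44992879 also did not overlap between groups, at 1.18 to 2.82 CPM in CT and 0.793 to 1.12 CPM in DSR rats. That gene lies within the span of another gene with 241610 counts, and its reads cannot be assigned with certainty.

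A minus-strand gene of chromosome 20 from 27103317 to 27117663 varied widely within both groups, from 10.7 to 51.1 CPM in CT rats and with 9.19, 7.95, 22.3, 3.17 and 15.1 CPM in DSR rats. Its log2 fold change was -1.20 ± 0.44 (SE; edgeR adjusted p = 0.982), and the exact permutation test gave p = 0.0563. In 6 of the 10 lower genes and 9 of the 10 higher genes, the p stayed under 0.05 whichever rat was left out. Among all 117 genes past both thresholds this held for 37. The named genes were chosen for a small p in the same fit, so that their numbers restate that choice in part. The weakest of the named genes was a chromosome 20 gene from 4877324 to 4879779. It had 0.523 to 12.1 CPM in CT rats and 0.507 to 4.18 CPM in DSR rats. Its p of 0.026 became 0.0933 without CT rat Grp7-R5 and 0.0577 in edgeR or 0.057 in DESeq2 on the 11 rats alone, and it overlaps 4 other genes.

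The single gene that passed an adjusted threshold in any fit was ENSRNOG00000014288, a minus-strand gene of chromosome 9 from 78900103 to 78969078 with 8406 exonic bases. CT rats had 42.1 to 52.5 CPM. DSR rats had 65.8, 67.5, 62.3, 59.6 and 65.2 CPM, on 1484 to 1819 counts per library, and the groups did not overlap. Its means were 47.0 ± 4.6 CPM (SD, n = 6) in CT and 64.1 ± 3.1 CPM (SD, n = 5) in DSR rats, a fitted 1.36-fold difference. DESeq2 on the 11 rats gave an adjusted p of 0.00024, while edgeR on the same 11 rats gave a p of 2.6e-05 and an adjusted p of 0.404. With all groups in the fit, edgeR gave an adjusted p of 0.982 and DESeq2 an adjusted p of 1, and both passed the unadjusted threshold. The METH groups left out of the smaller fits were more variable, at 65.5 ± 22.4 CPM (SD, n = 6) in AS and 63.3 ± 14.3 CPM (SD, n = 6) in ASR rats. The DSR level thus differed from the AS level by -0.03 ± 0.17 and from the ASR level by 0.02 ± 0.17 on the log2 scale (SE; edgeR adjusted p = 0.926 and 0.985).

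The same fit tested whether DSR rats differed from the other METH rats in these genes. Over all genes, 13.3% were higher and 12% lower in DSR vs AS, and 2.04% were higher and 2.25% lower in DSR vs ASR, at an unadjusted p under 0.05. The named genes were chosen for their DSR values, which all 3 comparisons share, so their counts here are a description only. ENSRNOG00000053044 was lower in DSR than in AS rats by a log2 difference of -0.83 ± 0.24 (SE; edgeR adjusted p = 0.0993). The corresponding difference from ASR rats was -0.91 ± 0.24 (SE; edgeR adjusted p = 0.846). ENSRNOG00000018355 had differences of -1.37 ± 0.36 from AS and -1.03 ± 0.36 from ASR rats (SE; edgeR adjusted p = 0.0993 and 0.846). ENSRNOG00000020729 was higher than in ASR rats by 0.60 ± 0.18 (SE; edgeR adjusted p = 0.846), and the difference from AS rats was 0.22 ± 0.18 (adjusted p = 0.464). Of the 10 higher genes, 1 passed the unadjusted threshold in DSR vs AS and 4 in DSR vs ASR. Of the 10 lower genes, 6 and 5 passed. None of the 21 genes passed after adjustment in either comparison.

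The direction of the differences varied with the exonic length of the genes, a grouping chosen after the values were seen. Of 348 genes with 8000 or more exonic bases, 29 (8.33%) were higher and 1 (0.287%) lower in DSR rats, and their median log2 fold change was 0.06. In genes of 4000 to 8000 bases, 125 of 2797 (4.47%) were higher and 13 (0.465%) lower. From 2000 to 4000 bases, 157 of 6156 (2.55%) were higher and 112 (1.82%) lower. In that class the numbers were 138 and 135 with RLE factors, and 144 and 152 in DESeq2 on all groups. More genes were lower from 1000 to 2000 bases, with 88 of 4603 (1.91%) higher and 123 (2.67%) lower. The same held from 500 to 1000 bases, with 25 of 1363 higher and 39 lower. Under 500 bases, 25 of 1008 were higher and 16 lower. Whether this contrast differs with expression level was not tested. Among genes of 100 CPM and over, 15 were higher and 3 lower of 712 with at least 4000 bases, and 3 higher and 12 lower of 536 with under 2000 bases. Among genes of 10 to 100 CPM there were 111 higher and 5 lower of 1743 with at least 4000 bases, and 39 higher and 110 lower of 2854 with under 2000 bases. Among genes of 1 to 10 CPM, both classes had more higher genes, with 25 higher and 3 lower of 555 in the longer class and 63 higher and 29 lower of 2221 in the shorter class. By the span a gene covers on the chromosome, those of 100000 to 500000 bases had 80 higher (4.26%) and 12 lower (0.640%) of 1876. Those under 5000 bases had 54 higher (1.59%) and 84 lower (2.48%) of 3388. The widest class, of 500000 bases and over, had 4 higher and 1 lower of 113, and 0 higher and 1 lower with the prefix as a covariate.

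**Figure D3:**
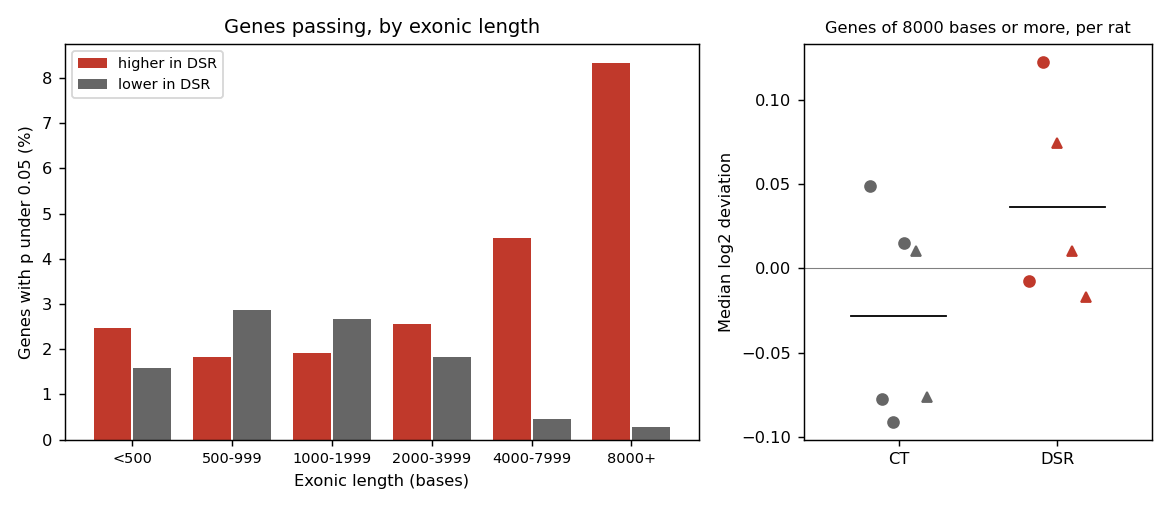
Left, percent of genes with an unadjusted p under 0.05 in DSR vs CT by exonic length, higher and lower in DSR shown as separate bars. Right, median log2 deviation of the 348 genes of 8000 bases or more from their mean over the 11 rats, with 1 point per rat (circle, Grp7; triangle, Grp8) and a line at the mean. The share of higher genes reaches 8.33% in the longest class, while the rats of both groups overlap.

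The shift was small in each rat, and the median log2 fold change of the longest class was 0.034 without DSR rat Grp7-R7. The median deviation of the longest genes from their 11-rat mean ranged from -0.09 to 0.05 in CT rats and from -0.02 to 0.12 in DSR rats on the log2 scale, and the groups overlapped. DSR minus CT medians were 0.09 among Grp7 rats and 0.06 among Grp8 rats. With RLE factors, 25 of these genes were higher and 1 lower, and without the mitochondrial genes the numbers were also 25 and 1. The count of higher genes depended on single rats. It fell to 10 without CT rat Grp7-R6, to 12 without DSR rat Grp7-R7, to 14 without CT rat Grp7-R5, to 15 without CT rat Grp8-R11 and to 16 without DSR rat Grp8-L4, and rose to 46 without CT rat Grp7-L7. It was 15 in edgeR or DESeq2 on the 11 rats alone. At most 2 were lower in any of these fits. Of the 348 genes of this length class, 125 were higher and 17 lower in DSR vs AS, beside 13.3% and 12% over all genes. In DSR vs ASR, 17 of the 348 were higher and 4 lower, beside 2.04% and 2.25% over all genes. Messenger RNA was selected by its poly(A) tail, and RNA integrity per rat was not analysed here.

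By chromosome, the shares are given for 5 picked after their values were seen, with no test of a difference between chromosomes. On chromosome X, 24 of 549 genes (4.37%) were higher and 3 (0.546%) lower in DSR rats, beside 2.76% and 1.87% over all genes. Chromosome 11 had 19 higher (4.65%) and 4 lower (0.978%) of 409, and chromosome 6 had 27 higher (3.65%) and 6 lower (0.812%) of 739. Chromosome 10 had 25 higher (1.85%) and 42 lower (3.11%) of 1349, and chromosome 1 had 31 higher (1.52%) and 51 lower (2.5%) of 2036. With RLE factors the numbers were 22 and 3 on chromosome X, 17 and 6 on chromosome 11, 26 and 7 on chromosome 6, 24 and 47 on chromosome 10, and 27 and 57 on chromosome 1. How far exonic length moves with these chromosomes was not tested.

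The files list 35 mitochondrial genes, which encode core subunits of the respiratory chain and transfer RNAs. Together they took a larger share of counts in DSR rats. The share was 14.8%, 12.7%, 14.1%, 13.0% and 14.7% in DSR rats, with a mean of 13.9% ± 0.97 (SD, n = 5). CT rats ranged from 11.6% to 13.4%, with a mean of 12.6% ± 0.73 (SD, n = 6). The groups overlapped. The difference of 1.27 percentage points was 1.27 among Grp7 rats and 1.15 among Grp8 rats, and stayed between 1.03 and 1.56 when any single rat was left out. Other METH rats covered a wider range, from 11.7% to 15.9% in ASR and from 11.9% to 19.6% in AS rats.

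All 13 mitochondrial genes of at least 200 bases were on the higher side in DSR rats, with log2 fold changes of 0.09 to 0.38 and a median of 0.15. A single one, on the plus strand from 10160 to 11537, passed the unadjusted threshold. Its level went from 995 ± 94 CPM (SD, n = 6) to 1298 ± 115 CPM (SD, n = 5), a log2 fold change of 0.38 ± 0.17 (SE; edgeR adjusted p = 0.982). The most abundant one, from 5323 to 6867, had 32524 ± 3163 CPM (SD, n = 6) in CT and 35872 ± 3925 CPM (SD, n = 5) in DSR rats (edgeR adjusted p = 0.982). All 13 differences were positive within each prefix, at 0.11 to 0.47 in Grp7 and 0.03 to 0.32 in Grp8 rats. Most of these transcripts are cut from a common precursor and do not count as independent genes. The 22 remaining mitochondrial genes are 60 to 75 bases long, 17 of them were tested and none had a p under 0.05. Over the 30 mitochondrial genes tested, the median log2 fold change was 0.15, and 0.14 with RLE factors.

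**Figure D4:**
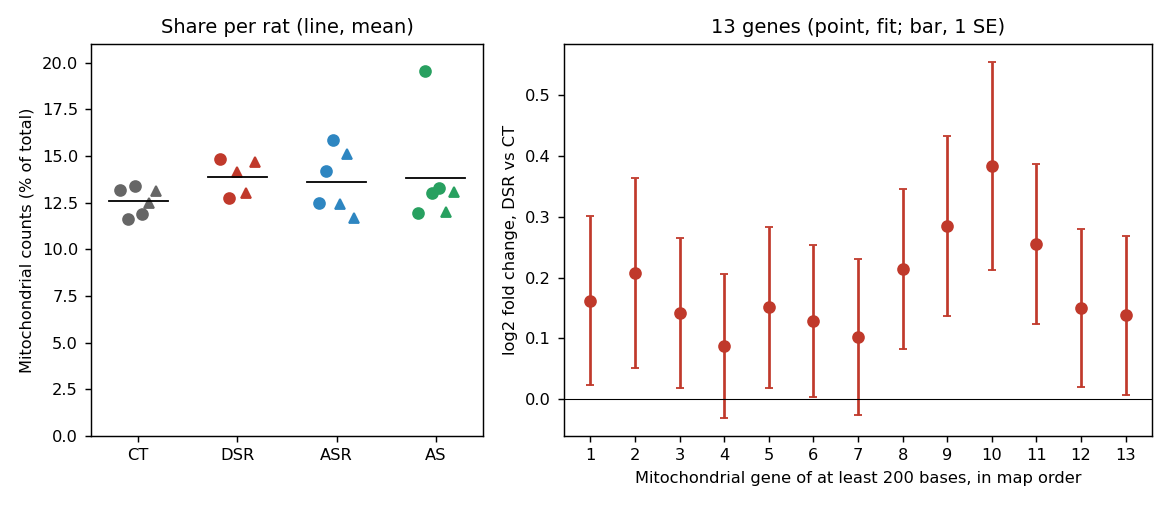
Left, share of counts from mitochondrial genes per rat in percent (circle, Grp7; triangle, Grp8; line, mean). Right, log2 fold change of DSR vs CT with its SE for 13 mitochondrial genes in map order. DSR rats lie at 12.7% to 14.8% and CT rats at 11.6% to 13.4%, and all 13 fold changes are above 0.

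Over all genes, the differences from CT in Grp7 rats and in Grp8 rats did not rise together. Each is a difference of means of few rats, 2 DSR and 4 CT in Grp7 and 3 DSR and 2 CT in Grp8, so single rats weigh heavily. Across the 14325 genes of at least 1 CPM, the DSR minus CT differences of the prefixes correlated at r = -0.16, with no rat in common. Over all 16275 genes r was -0.12. Genes are not independent of each other, and these values describe 11 rats. Of 657 genes at least 1.5-fold apart in Grp7 rats, 211 (32.1%) had the same direction in Grp8 rats and 35 of them also reached 1.5-fold there. Of 345 genes at least 1.5-fold apart in Grp8 rats, 156 (45.2%) had the same direction in Grp7 rats. Of genes at least 1.5-fold lower in Grp7 DSR rats, 114 of 457 (24.9%) were also lower in Grp8. Of those at least 1.5-fold higher in Grp7, 97 of 200 (48.5%) were also higher in Grp8. Of genes at least 1.5-fold lower in Grp8 DSR rats, 66 of 106 (62.3%) were also lower in Grp7. Of those at least 1.5-fold higher in Grp8, 90 of 239 (37.7%) were also higher in Grp7. All genes in these counts had at least 1 CPM. The genes named above all had the same sign in both prefixes, although they were chosen on all 11 rats. Their size differed in places, as in a chromosome 4 gene from 168752133 to 168755023 with -0.96 in Grp7 and -0.03 in Grp8. A chromosome 12 gene from 3233961 to 3284155 had 0.40 in Grp7 and 1.29 in Grp8.

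**Figure D5:**
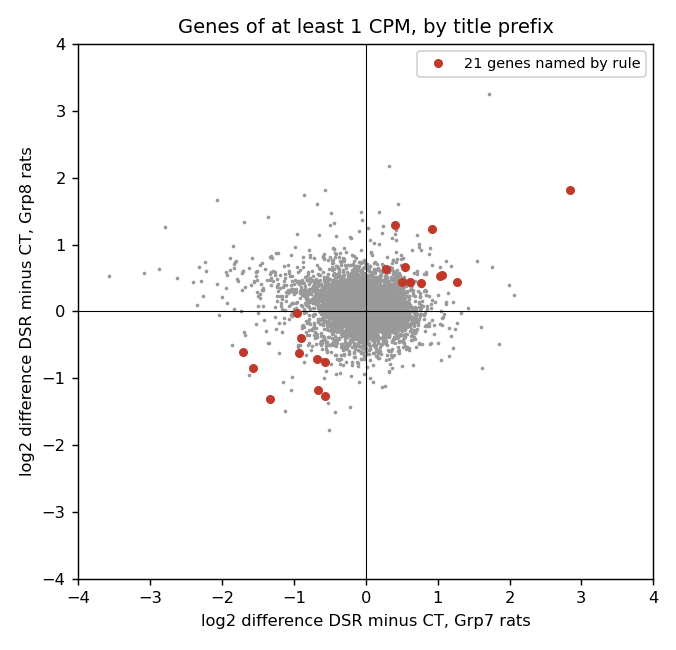
DSR minus CT difference in log2 CPM among Grp7 rats (horizontal axis) and Grp8 rats (vertical axis) for 14325 genes of at least 1 CPM, with the 21 genes named by rule in red. The cloud has no upward slope (r = -0.16), and a tail of genes is low in Grp7 DSR rats and near or above 0 in Grp8.

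In 16 genes of that tail, all of at least 1 CPM and picked after their values were seen, DSR rats were at least 4-fold below CT rats within Grp7, and in 15 of these the difference was positive within Grp8. DSR rat Grp7-R7 was the lowest of the 11 in 14 of the 16. CT rat Grp7-R5 or DSR rat Grp8-L9 was the highest in 14. The median level of the 16 genes was 1.36, 0.157, 4.10, 6.22 and 1.61 CPM in the DSR rats and ran from 1.20 to 7.21 CPM in CT rats. This median was graded across the rats, with CT rats Grp7-L7 and Grp8-L11 at 1.20 and 1.25 CPM. A pair of neighboring chromosome 20 genes among the 16 was instead high in some rats and near 0 in the others, as given under other observations. An example of the 16 genes was a plus-strand gene of chromosome 2 from 142717281 to 142735410. It stood at 0.796 and 0.0783 CPM in the Grp7 DSR rats, at 3.25, 7.50 and 1.69 CPM in the Grp8 DSR rats and at 1.17 to 7.13 CPM in CT rats. Its fitted log2 fold change was -0.65 ± 0.53 (SE; edgeR adjusted p = 0.982). None of the 16 had a p under 0.05. The first principal component of all 23 libraries held 29.6% of the variance. It was lowest in DSR rat Grp7-R7 and, of the 11 rats, highest in CT rat Grp7-R5. Its sign is arbitrary and was set positive in CT rat Grp7-R5. The 16 genes entered this component, so that the match is not a separate result. DSR rats had scores of -14.5, -49.7, -8.48, 20.7 and -30.2 and CT rats of -45.6 to 25.2, so that both groups covered much of its range. Mean scores were -8.02 in CT and -32.1 in DSR rats of Grp7, and -20.0 in CT and -5.99 in DSR rats of Grp8.

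A minus-strand gene of chromosome 3 from 92288818 to 92290919 fell into 3 separate levels. Among genes of at least 1 CPM, it was picked for the most positive DSR minus CT difference within Grp8 rats (3.25 on the log2 scale). Where DSR and CT rats stand among its levels thus follows in part from that choice and is a description only. CT rats stood at 40.9, 43.1, 1.31, 37.1, 1.08 and 39.0 CPM, and DSR rats at 38.8, 83.6, 40.3, 80.7 and 80.3 CPM. Over all 23 rats, 3 had 1.08 to 1.31 CPM, 9 had 37.1 to 43.8 CPM and 11 had 69.9 to 83.6 CPM, with none between these levels. The lowest level held 2 CT and 1 ASR rats. The highest held 3 DSR, 4 ASR and 4 AS rats and no CT rat. The fitted log2 fold change of DSR vs CT was 1.26 ± 0.67 (SE; edgeR adjusted p = 0.982). No other annotated gene overlaps it.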

How the data were processed

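Dorsal striatal RNA was sequenced after poly(A) selection, with 1 library per rat. The authors trimmed reads (Trimmomatic 0.36), mapped them to Rnor6.0 (STAR 2.5.2b) and counted reads in exons with featureCounts (Subread 1.5.2), by the submitters' processing notes and the paper. The deposited values are raw counts per Ensembl gene, without normalization. Rats were grouped by the treatment label. With edgeR 4.0.16 in R 4.3.3, genes were kept by filterByExpr (minimum count 10, minimum total 15) and scaled with TMM factors. The 4 groups entered a single quasi-likelihood fit with DSR minus CT as contrast, and p-values were adjusted by Benjamini-Hochberg over 16275 genes. Standard errors follow from the log2 fold change and its F statistic. Single genes were also tested by exact permutation on log2 CPM (prior count 2). The fit was tested on simulated data. Within CT and within DSR rats, the chi-square per gene between rats was 14.8 to 85.9 over 25 pairs, so none of these libraries repeated another of its group. Pairs across groups and pairs with ASR or AS libraries were not compared.

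The members and lists were chosen with earlier results of these data known. The rule named the 10 genes with the smallest p in each direction (unadjusted p under 0.05, at least 1.5-fold, at least 1 CPM, with a symbol) and every gene with an adjusted p under 0.05 in any fit. As 0 of 32552 identifiers could be paired with a symbol, the symbol condition was dropped after the files were read, and the genes measured by PCR, the gene lists and the cell type markers of the rule were not analysed here. No sequence could be matched to a gene.

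Alternatives were edgeR on the 11 rats, DESeq2 1.42.0 on all groups and on the 11 rats, scaling by RLE, testing all genes without the filter on low counts, a log2 threshold of 1.5 in place of 1.5-fold, the title prefix as a covariate, differences within each prefix and each rat left out in turn. Both DESeq2 fits were run without the filter on low counts. A fit without mitochondrial genes, the detected genes at equal depth, and, for single genes, the fits without the filter and of DESeq2 on the 11 rats were added after the data were seen. Depth was 18967015 to 28137676 counts per library over the 11 rats, and genes near 1 CPM rest on few counts, which limits their precision.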

Additional observations from a re-analysis of the deposited data

Results flagged for a closer look

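Dixon's test for a rat standing apart within its group was run in 52 sets of values (21 genes and 5 measures per rat, in CT and DSR rats). It picked out a rat in 2 sets, and chance would give about 2.6. The gene on chromosome 18 from 53609214 to 53667970, one of the 10 lower genes, stood at 0.683 CPM in DSR rat Grp8-R1 and at 1.86 to 2.62 CPM in the other DSR rats. Without this rat its p was 0.021. CT rat Grp7-R6 had 20398 detected genes, and the other CT rats had 20024 to 20122.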

How the results depend on the processing

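The 753 genes with an unadjusted p under 0.05 became 1150 with no filter on low counts and ranged from 609 to 1208 when a rat was left out. The 117 genes that were also 1.5-fold became 226 in DESeq2 on all groups, 195 in DESeq2 on the 11 rats, 555 with no filter and 6 at a log2 fold change over 1.5, and ranged from 114 to 201 without a rat. The DESeq2 fits also left out that filter, so method and gene set changed together. The count after adjustment was 0 in every fit except DESeq2 on the 11 rats, which called 1, and it was also 0 in each of the 11 fits without a rat. Of the 753 genes 59.6% were higher in DSR rats. This share was 52.3% with RLE factors, 51.5% without the mitochondrial genes, 50.6% in DESeq2 on all groups, and 41.9% without DSR rat Grp8-L9. The fold changes of the 21 named genes kept their direction in all 147 values under other settings, with 2 over the p threshold (both the chromosome 20 gene from 4877324), and in all 231 values without a rat, with 13 over it. Within a prefix all 42 kept their direction, and 6 moved by more than 1 SD between rats. These genes were chosen by p on the same rats, so that a kept direction largely restates that choice. The cause of each shift was not tested. Low counts limit the genes near 1 CPM, and with 5 and 6 rats a permutation p cannot go below 0.00433. No paired analysis was possible because rat codes differ between groups.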

Other observations

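Several genes were high in some rats of different groups and lower in the others. A plus-strand gene of chromosome 6 from 55812747 to 55817066 had 25.0 CPM in CT rat Grp7-R12 and 20.9 CPM in DSR rat Grp7-L2, and 0.218 to 0.90 CPM in the other CT and DSR rats. AS rats Grp8-L5 and Grp7-R1 had 23.1 and 9.65 CPM, and the other AS and ASR rats had 0.0948 to 3.74 CPM. Neighboring genes of chromosome 20, from 3134704 to 3135301 and from 3135791 to 3140610 on opposite strands, were high together in CT rats Grp7-R5 (6.17 CPM for the longer gene) and Grp7-R6 (3.27 and 5.10 CPM) and in DSR rat Grp8-R1 (3.09 and 3.65 CPM). In the other CT and DSR rats they were at most 0.130 and 0.238 CPM. The longer gene also had 2.73 to 4.04 CPM in ASR rats Grp7-L4, Grp7-R4, Grp7-R10 and Grp8-R4. It had 4.79 and 3.57 CPM in AS rats Grp7-R2 and Grp7-R9, and at most 0.253 CPM in the other ASR and AS rats. Both neighboring genes are among the 16 genes described above as low in Grp7 DSR rats. None of these 3 genes had a p under 0.05 in DSR vs CT. They were singled out after their values were seen.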
